A study of Mus musculus with 8 samples.

Results

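The circadian clock genes described here are 10 transcripts of the core feedback loop: Arntl, Clock, Per1, Per2, Per3, Cry1, Cry2, Nr1d1, Nr1d2 and Dbp. They were chosen by gene name among the 23930 genes of an expression table of mouse tibialis anterior, a fast muscle of the lower leg, and all 10 were present with 1 amplicon each. The table holds 4 KO and 4 WT libraries. KO mice carried a floxed Sdhc, which encodes a membrane anchor of succinate dehydrogenase, and an inducible Cre recombinase under the HSA promoter, which is active in skeletal muscle fibres (genotype label HSA-Cre/Lox-SDHC). WT mice were littermates with the recombinase and no floxed allele (HSA-Cre/No Lox). Both groups received tamoxifen at 12 weeks of age and gave muscle 20 weeks later. The Cre acts in fibres, so other cells of the whole muscle are expected to keep Sdhc. The labels spell the strain C57BL/6 for WT, C57BL/7 for KO 1 and C57BL/8 for KO 2 to KO 4, and the growth protocol names C57/B6 for all. Not given in the sources used here were the hour of the day at which muscle was taken and the sex of the mice.

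The clock of mammalian cells is a transcriptional loop. ARNTL (also called BMAL1) and CLOCK bind E-box sequences and switch on the period and cryptochrome genes, whose proteins then inhibit ARNTL and CLOCK. In a further loop the REV-ERB repressors NR1D1 and NR1D2, also E-box targets, occupy ROR response elements and hold down Arntl. DBP, an activator that binds D-box sequences, is a direct output of the E-box arm. In mouse skeletal muscle, as in other tissues, Arntl and Dbp peak at nearly opposite times of day, so their ratio depends strongly on the hour of sampling.

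These letters can be read in the promoters of 3 members, shown because they carry the 3 elements that link the genes measured below. RefSeq promoter windows (GRCm38.p6, 250 bases before to 50 bases after each transcript start) were at hand for 9 of the 10 genes, and Per2 was not among them. The Per1 stretch, with its E-box in capitals, is chr11:69098699-69098948 (plus strand). This stretch precedes a transcript start that lies inside the annotated gene, which begins at 69095217. The Per3 stretch, with 2 D-boxes in capitals, is chr4:151044666-151044915 (minus strand). The Arntl stretch, with a ROR response element in capitals, is the 30 bases at chr7:113207528-113207557 (plus strand), just after a transcript start. All are printed 5′ to 3′ along the gene.
Per1: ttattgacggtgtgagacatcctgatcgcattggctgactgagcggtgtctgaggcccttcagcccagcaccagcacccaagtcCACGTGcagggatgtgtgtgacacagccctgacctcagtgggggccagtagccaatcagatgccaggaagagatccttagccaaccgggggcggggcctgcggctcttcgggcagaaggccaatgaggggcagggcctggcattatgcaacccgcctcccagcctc
Per3: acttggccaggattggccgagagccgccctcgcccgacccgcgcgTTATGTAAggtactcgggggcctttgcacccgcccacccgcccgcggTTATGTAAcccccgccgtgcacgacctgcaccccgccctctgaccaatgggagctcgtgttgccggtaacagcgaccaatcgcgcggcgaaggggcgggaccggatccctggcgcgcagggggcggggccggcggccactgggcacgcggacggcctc
Arntl: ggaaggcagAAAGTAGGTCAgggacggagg
Both strands were searched. The E-box CACGTG was found in 7.15% of all 32851 promoter windows of 300 bases, and among the members in those of Per1 and Cry1. The E-prime box CACGTT, found in 4.68% of windows, was in those of Cry1, Cry2 and Nr1d1. The D-box TTATGTAA, found in 0.938%, was in that of Per3 alone among the members, and the ROR response element, found in 0.384%, in that of Arntl alone. The windows of Clock, Nr1d2 and Dbp held none of the 4 motifs. No motif overlapped another, and a match describes letters only.

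Library totals lay between 4.77 and 7.28 M reads (M, 1000000) in KO and between 5.99 and 7.09 M reads in WT, and values were RPM, reads per 1000000 reads of the library. Sdhc stood at 17.1, 14.5, 22.8 and 49.4 RPM in KO 1 to KO 4, against 574, 693, 795 and 722 RPM in WT 1 to WT 4 (exact permutation test, two-sided, p = 0.0286, which is the lowest value possible with 4 against 4). Muscle fibre markers were abundant in all 8 libraries: 7 listed genes summed to between 85224 and 129295 RPM in KO and between 105358 and 155530 RPM in WT. The 10 endothelial markers summed to between 575 and 764 RPM in KO and between 394 and 568 RPM in WT, so that the groups did not overlap. Of the other marker lists, the fibroblast and tendon sum overlapped between the groups (992 to 1725 RPM in KO against 1197 to 1534 RPM in WT), as did the myeloid sum (90.5 to 131 RPM in KO, 61.3 to 115 RPM in WT). The adipocyte sum did not overlap (297 to 356 RPM in KO, 174 to 246 RPM in WT) and was mostly Fabp4, while the defining adipocyte gene Adipoq was at most 1.65 RPM in any library. The part of these cell types in the results below was not tested, and in whole muscle fewer cells of a type and less RNA per cell cannot be told apart. Xist had 98.9 RPM in KO 4, against 77.3 RPM in WT 1, and no more than 0.334 RPM in any other library.

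All 10 clock transcripts had at least 1 RPM in all 8 libraries and entered the test of KO against WT. None was called, and for none did the KO libraries lie apart from the WT libraries. What some of them did show was a large spread between libraries within each genotype: Arntl, Dbp, Per1, Per2 and Per3 were among the most variable genes. Arntl and Dbp ran in opposite order, so that the libraries with the most Arntl, KO 3 and WT 2, had the least Dbp, and those with the least Arntl, KO 1 and WT 3, had the most Dbp. Among 11087 genes tested with limma (log2(RPM + 1), Benjamini-Hochberg adjusted p under 0.05), 0 of the 10 members passed, where 0.803% of all genes did (0.523% higher and 0.28% lower in KO). At an unadjusted p under 0.05 there was 1 member, Cry2, where 16.1% of all genes reached that level (13.1% with higher and 3.07% with lower values in KO), and on the recovered reads edgeR called 0 of the 10 (0.83% of all genes) and DESeq2 called 0 of the 10 (2.16% of all genes). Groups did not overlap in 0 of the 10 members and in 9.1% of all genes (7.5% higher and 1.61% lower in KO). Over all genes tested, the median log2 difference between KO and WT was 0.13. Log2 fold changes below are KO over WT, given relative to that median, while their p-values test the deposited scale. The median over the 10 members was -0.05.

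**Figure D1:**
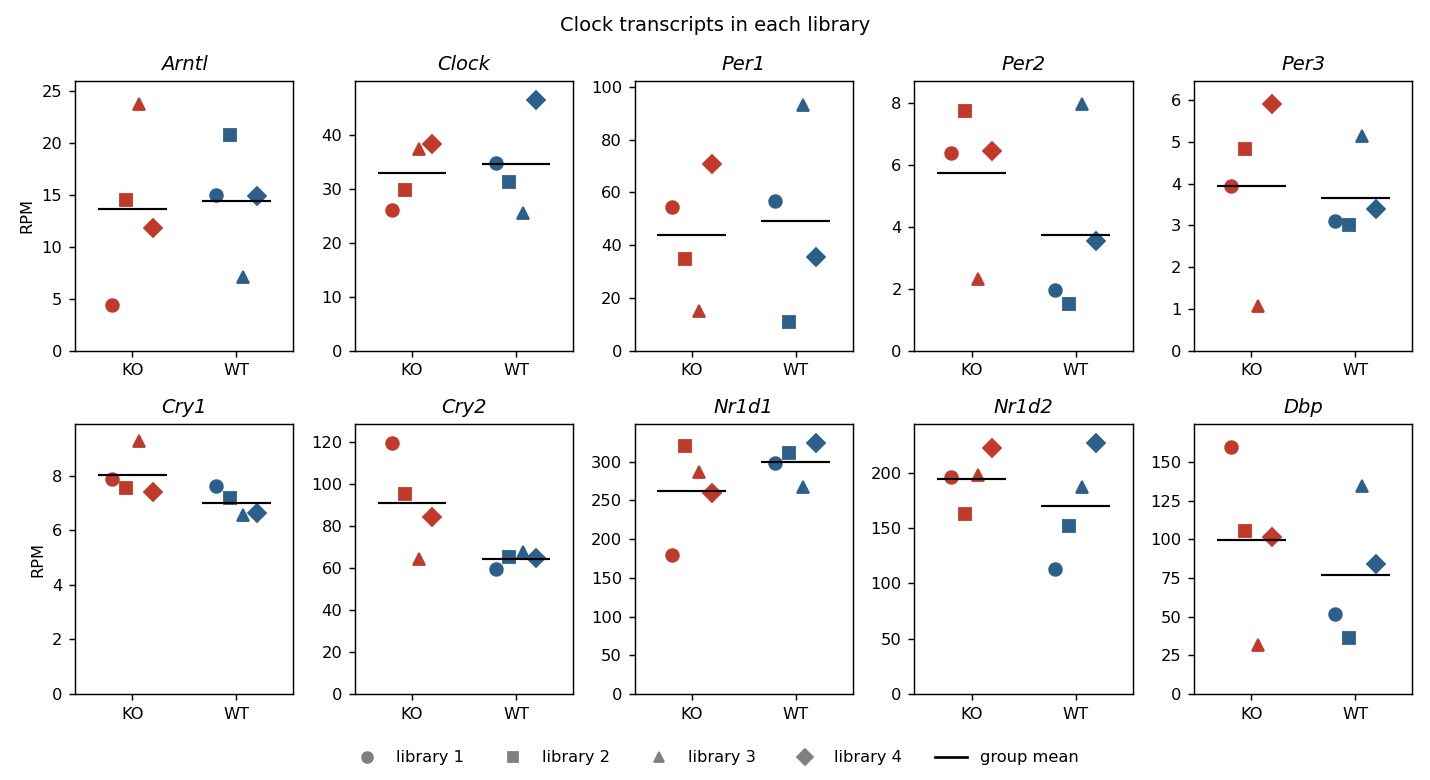
RPM (vertical axes, each from 0) of the 10 clock transcripts in the KO (red, left) and WT (blue, right) libraries; symbols give the library number and lines the group means. KO and WT overlap for every gene, and the highest and lowest libraries differ 5.0-fold or more for Arntl, Per1, Per2, Per3 and Dbp.

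The activators differed in how much they varied. Arntl, the obligate activator of the loop, had 4.44, 14.5, 23.7 and 11.8 RPM in KO 1 to KO 4, against 14.9, 20.7, 7.13 and 14.9 RPM in WT 1 to WT 4. KO 3 was the highest and KO 1 the lowest library of all 8, and the WT values lay between them. Arntl averaged 13.6 ± 7.97 RPM in KO and 14.4 ± 5.57 RPM in WT (SD, n = 4 each), with a relative log2 fold change of -0.31 (95% interval -1.08 to 0.45, limma adjusted p = 0.835). The Arntl difference on the deposited scale, -0.19 with all libraries, moved in both directions when libraries were left out. Leaving out KO 1 turned it positive, to 0.22, as did leaving out WT 2, to 0.01. Without KO 3 and WT 3 together it was -0.78 (limma adjusted p = 0.523, the smallest among its alternatives). Clock, its partner, was steadier, at 26.1, 29.7, 37.3 and 38.3 RPM in KO, against 34.7, 31.2, 25.5 and 46.5 RPM in WT. The lowest and highest Clock values, in WT 3 and WT 4, were 1.82-fold apart, against 5.35-fold for Arntl. The relative log2 fold change of Clock was -0.18 (95% interval -0.57 to 0.21, adjusted p = 0.914).

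The period genes encode the repressors that E-boxes induce, and Per1 also responds acutely to glucocorticoid and cyclic AMP signals. Per1 had 54.4, 34.8, 15.0 and 70.7 RPM in KO 1 to KO 4, against 56.8, 11.02, 93.2 and 35.6 RPM in WT 1 to WT 4. Its highest and lowest libraries, WT 3 and WT 2, belonged to the same genotype and were 8.46-fold apart, the widest range among the 10. Per1 averaged 43.7 ± 24.1 RPM in the KO group and 49.2 ± 34.8 RPM in the WT group (limma adjusted p = 0.99, relative log2 fold change -0.15, 95% interval -1.20 to 0.91). Per2 had 6.41, 7.75, 2.32 and 6.46 RPM in KO, against 1.97, 1.5, 7.98 and 3.56 RPM in WT. The single low KO library was KO 3, and the single high WT library was WT 3. Its relative log2 fold change was 0.47 (95% interval -0.29 to 1.23, adjusted p = 0.417). On the deposited scale the Per2 difference was 0.60, against 0.91 without KO 3 (limma adjusted p = 0.324), 0.97 without WT 3 (0.272), 0.35 without WT 2 (0.685) and 1.28 without KO 3 and WT 3 together (0.114). Per3 had 3.94, 4.82, 1.07 and 5.91 RPM in KO, against 3.1, 3.0, 5.13 and 3.4 RPM in WT, again lowest in KO 3. Its relative log2 fold change was -0.15 (95% interval -0.80 to 0.49, adjusted p = 0.977). The deposited-scale differences of Per1 (-0.02) and Per3 (-0.03) turned to 0.41 and 0.35 without KO 3, and to 0.40 and 0.11 without WT 3. Per2 and Per3 rest on few reads. Per3 in KO 3 had 6 reads, for which the 95% Clopper-Pearson limits were 0.39 and 2.33 RPM. Per2 in WT 2 had 9 reads, with limits of 0.69 and 2.85 RPM. These limits cover counting error only.

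The cryptochromes, which complete the repressor complex with the period proteins, behaved differently from each other. Cry2 had 119, 95.5, 64.4 and 84.2 RPM in KO 1 to KO 4, against 59.6, 65.3, 67.6 and 64.9 RPM in WT 1 to WT 4. Of the KO libraries, 3 lay above all WT libraries and KO 3 lay among them, while the WT libraries were tightly grouped. Cry2 averaged 90.9 ± 23.0 RPM in the KO group and 64.4 ± 3.35 RPM in the WT group (relative log2 fold change 0.33, SE 0.16, 95% interval -0.01 to 0.68). On the deposited scale Cry2 had the smallest p among the members, 0.0126 unadjusted, and did not pass after adjustment (limma adjusted p = 0.191, between 0.103 and 0.459 over its alternatives). Cry1 was low and nearly constant, at 7.89, 7.54, 9.28 and 7.42 RPM in KO, against 7.62, 7.18, 6.56 and 6.64 RPM in WT. The highest and lowest Cry1 libraries, KO 3 and WT 3, were 1.42-fold apart (relative log2 fold change 0.05, 95% interval -0.30 to 0.39, adjusted p = 0.622).

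The REV-ERB pair varied less than Arntl, 1.81-fold for Nr1d1 and 2.01-fold for Nr1d2 between the highest and lowest libraries. Nr1d1 had 180, 320, 287 and 260 RPM in KO 1 to KO 4, against 298, 311, 267 and 325 RPM in WT 1 to WT 4. KO 1 stood apart at the low end, and the other KO libraries lay within or next to the WT range. Nr1d1 averaged 262 ± 59.9 RPM in the KO group and 300.2 ± 24.6 RPM in the WT group (relative log2 fold change -0.35, 95% interval -0.69 to -0.01 with the median of all genes taken as fixed, limma adjusted p = 0.497). With TMM factors (trimmed mean of M values), which centre the libraries on each other, Nr1d1 had an unadjusted p of 0.0236 (adjusted p = 0.281) and Cry2 one of 0.0893. Nr1d1 likewise had a smaller unadjusted p than Cry2 with quantile normalization (0.0407 against 0.0746), in edgeR (0.0330 against 0.0546) and in DESeq2 (0.0296 against 0.0517). Without KO 1 the Nr1d1 difference on the deposited scale shrank to -0.06, against -0.23 with all libraries. Nr1d2 had 196, 163, 198 and 223 RPM in KO, against 113, 152, 187 and 227 RPM in WT, so the KO values lay inside the WT range (relative log2 fold change 0.11, 95% interval -0.27 to 0.49, adjusted p = 0.532). Dbp, the output activator, had 160, 106, 31.9 and 101 RPM in KO 1 to KO 4, against 51.8, 36.2, 134 and 84.4 RPM in WT 1 to WT 4. KO 1 and WT 3 were the highest, KO 3 and WT 2 the lowest, and the extremes were 5.0-fold apart. Dbp averaged 99.7 ± 52.4 RPM in the KO group and 76.7 ± 43.3 RPM in the WT group (relative log2 fold change 0.21, 95% interval -0.65 to 1.07, adjusted p = 0.71). The Dbp difference on the deposited scale, 0.34 with all libraries, was 0.81 without KO 3 (limma adjusted p = 0.356) and 0.66 without WT 3 (0.558), but 0.04 without KO 1 (0.97) and 0.04 without WT 2 (0.977).

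**Figure D2:**
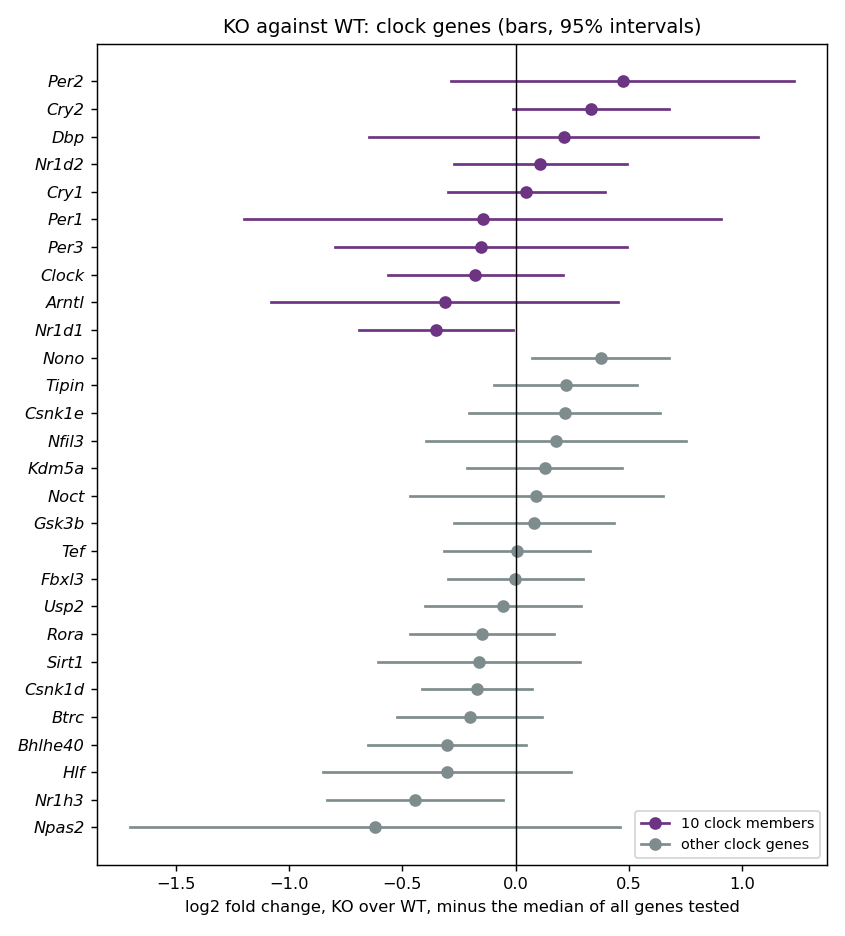
Log2 fold change of KO over WT, minus the median of all genes tested (horizontal axis), for the 10 clock members (purple) and 18 other clock genes (grey); points are estimates and bars 95% intervals from limma. The widest intervals among the members are those of Per1, Dbp, Arntl and Per2, and no gene shown passed the adjusted test.

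Both groups spanned most of the range in the balance of Dbp against Arntl. The log2 ratio of Dbp to Arntl within a library, taken with 1 RPM added to each, does not depend on library scaling apart from that addition. It was 4.89, 2.79, 0.41 and 3.0 in KO 1 to KO 4, against 1.73, 0.78, 4.06 and 2.42 in WT 1 to WT 4. The libraries therefore ran from KO 1 and WT 3 at the Dbp-rich end to WT 2 and KO 3 at the Arntl-rich end, with both genotypes at each end. The ratio differed by 4.47 log2 units between the extreme KO libraries and by 3.28 between the extreme WT libraries. The group means were 2.77 ± 1.83 in KO and 2.25 ± 1.38 in WT (SD, n = 4 each), a difference of 0.53 that is smaller than either SD. Without KO 1 the difference was -0.18 and without KO 3 it was 1.31, without WT 2 it was 0.04 and without WT 3 it was 1.13. The ratio of Nr1d1 to Arntl varied less, with a mean of 4.33 ± 0.62 in KO and 4.37 ± 0.50 in WT, and its ends were those of Arntl, which it shares as denominator. With no hour of sampling at hand, the phase of the clock itself was not measured, and the part of sampling time in the spread between libraries was not tested.

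**Figure D3:**
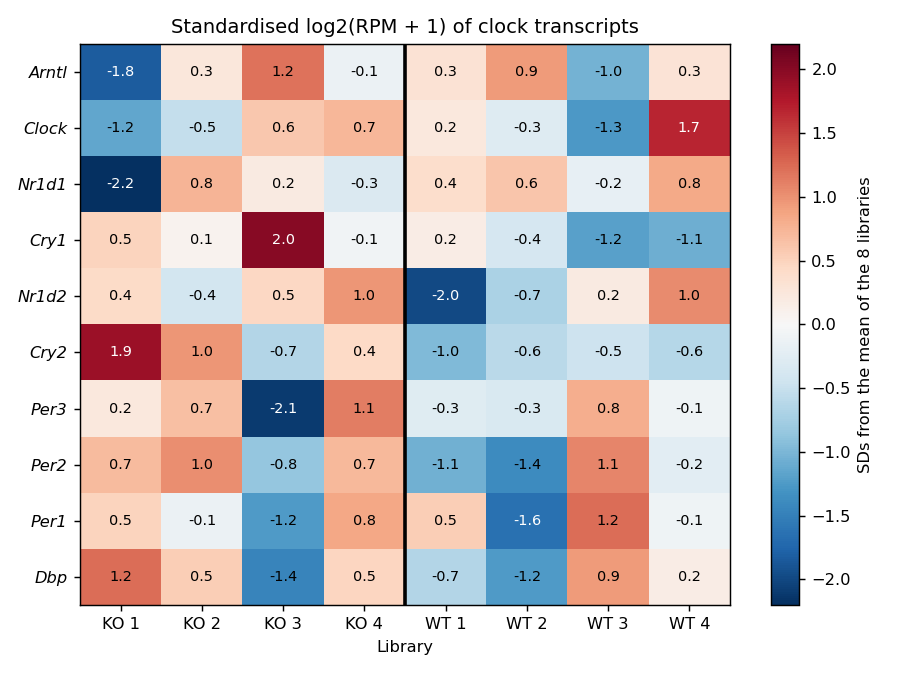
Standardised log2(RPM + 1) of each clock transcript (rows) in each library (columns, KO left of the line, WT right); colour and printed values are SDs from the gene's mean over 8 libraries. KO 1 and WT 3 lie below the mean for Arntl and above it for Dbp, Per1 and Per2, and KO 3 and WT 2 the other way round.

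The opposition of Arntl and Dbp held across all 8 libraries. Pearson's r of their log2(RPM + 1) was -0.88 (exact permutation p = 1.98e-04, adjusted p = 0.00179 over the 9 relations of Arntl with the other members) and Spearman's rho was -0.98 (exact permutation p = 3.97e-04, adjusted p = 0.00357). It did not rest on the libraries farthest from the Arntl median: without KO 1 and WT 3 r was -0.90. Taken as deviations from the genotype means r was -0.88, and with TMM factors it was -0.89.

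None of the other 8 relations of Arntl passed the adjustment. Per1 had r = -0.74 (exact permutation p = 0.0159, adjusted p = 0.0717; rho = -0.69, p = 0.0694), and r was -0.92 without KO 1 and WT 3. Per2 had r = -0.70 (exact permutation p = 0.0395, adjusted p = 0.089; rho = -0.76, p = 0.0368) and -0.70 without those libraries. For Per3, r was -0.59 (exact permutation p = 0.0734, adjusted p = 0.132; rho = -0.83, p = 0.0154), and -0.90 without those libraries. Cry2 gave r = -0.66 (exact permutation p = 0.104, adjusted p = 0.134; rho = -0.79, p = 0.0279), and -0.52 without them. The positive relation of Nr1d1 with Arntl, r = 0.82 (exact permutation p = 0.0323, adjusted p = 0.089; rho = 0.55, p = 0.171), rested on those libraries, since r was 0.22 without them. So did that of Clock, with r = 0.60 (exact permutation p = 0.103, adjusted p = 0.134; rho = 0.50, p = 0.216) and -0.18 without them. Nr1d2 had r = -0.23 (exact permutation p = 0.613, rho = -0.19, p = 0.665) and r = -0.12 without KO 1 and WT 3. Cry1 had r = 0.30 (exact permutation p = 0.455, rho = 0.24, p = 0.582), which was 0.58 without those libraries and turned to -0.11 with TMM factors. Taken as deviations from the genotype means over all 8 libraries, r with Arntl was 0.85 for Nr1d1, 0.60 for Clock and 0.53 for Cry1. On that measure it was -0.81 for Cry2, -0.74 for Per1, -0.72 for Per2, -0.60 for Per3 and -0.19 for Nr1d2.

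**Figure D4:**
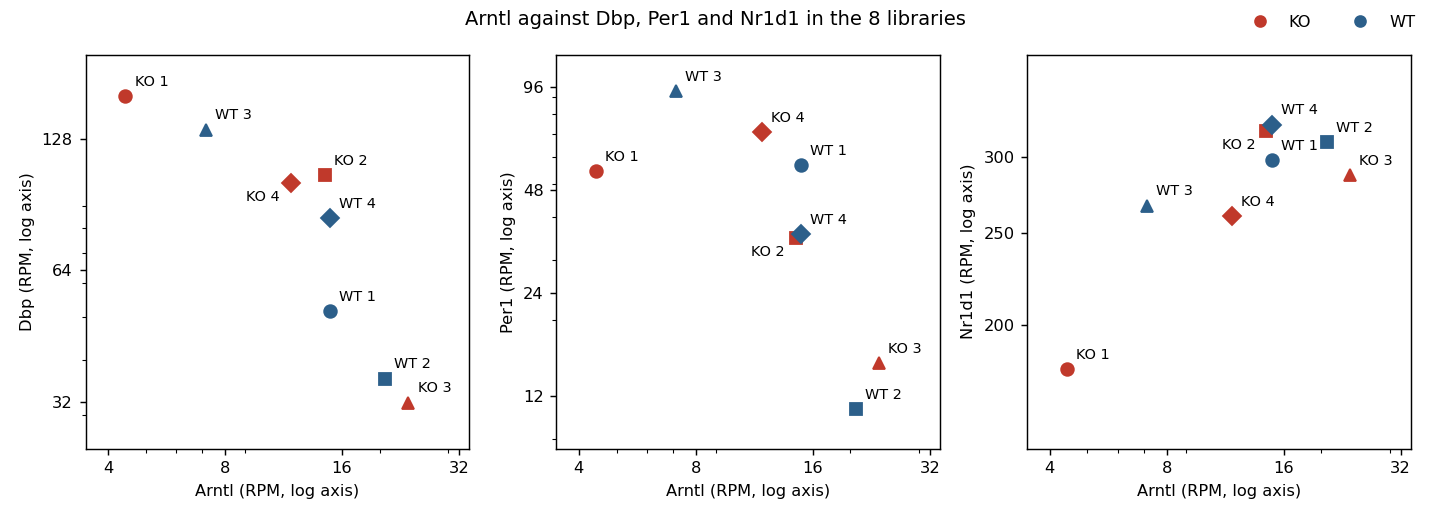
Arntl (horizontal, RPM, log axis) against Dbp, Per1 and Nr1d1 (vertical, RPM, log axes) in the 8 libraries, KO in red and WT in blue. Dbp declines along the whole Arntl range from KO 1 to KO 3, with KO and WT libraries interleaved, while Nr1d1 is lowest in KO 1, the library with the least Arntl.

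The spread within genotypes was above that of the median gene for 9 of the 10 members. The SD of log2(RPM + 1) between libraries of a genotype, pooled over KO and WT, was 1.12 for Per1, 0.90 for Dbp, 0.77 for Arntl, 0.73 for Per2 and 0.58 for Per3, where the median gene had 0.25. These 5 members lay in the top 10% of all genes tested, at percentiles from 98.2 for Per3 to 99.8 for Per1. Among genes of similar level (all genes split by mean level into 10 equal bins), they stood at percentiles from 97.1 for Per3 to 99.9 for Per1. Nr1d2 (0.33), Clock (0.31), Nr1d1 (0.27) and Cry2 (0.27) were also above the median gene, at percentiles 76.3, 70.4, 57.8 and 56.5 of all genes and at 88.8, 83.4, 76.7 and 77.9 among genes of similar level. Cry1 (0.11) was the exception, at percentile 3.61 of all genes and 1.89 among those of similar level.

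**Figure D5:**
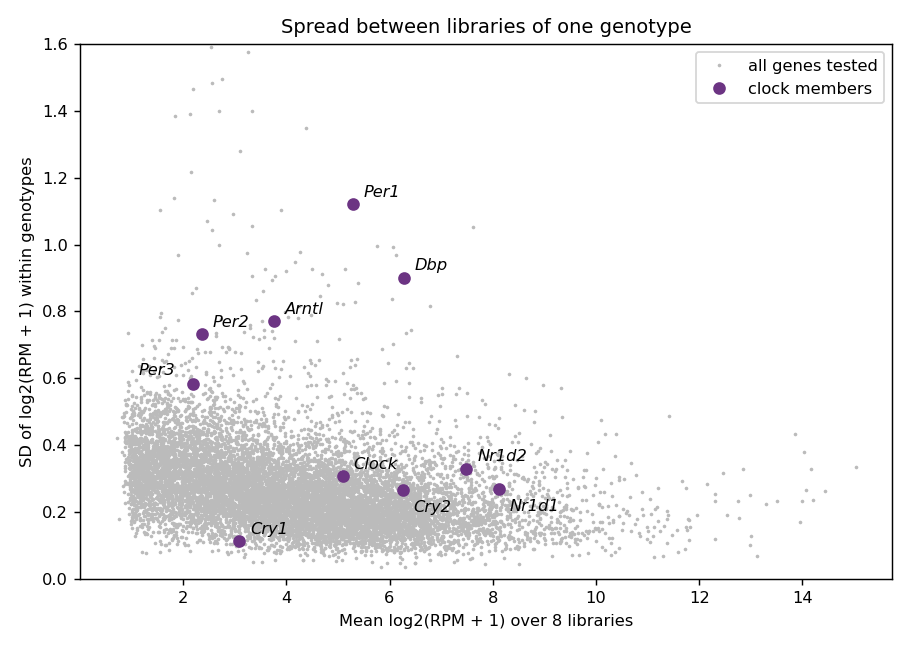
SD of log2(RPM + 1) between libraries of a genotype (vertical) against mean log2(RPM + 1) over the 8 libraries (horizontal) for all 11087 genes tested (grey) and the clock members (purple); 9 genes lie above the axis. Per1, Dbp, Arntl, Per2 and Per3 sit above most genes of similar level, and Cry1 sits at the lower edge.

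Other genes of the clock were taken from a list of 26, 23 of them in the table and 19 tested, and the rest are not analysed here. In limma 0 of the 19 passed in either direction (edgeR and DESeq2 also called 0), and at an unadjusted p under 0.05 there were 2, both with higher values in KO, where 13.1% of all genes had higher values at that level. Their median relative log2 fold change was -0.06. The smallest p was that of Nono, a nuclear protein that partners the period proteins. Nono had 56.8, 66.6, 64.8 and 47.4 RPM in KO, against 46.0, 37.9, 40.6 and 39.8 RPM in WT. Its groups did not overlap, where 7.5% of all genes did not and were higher in KO. Nono had a relative log2 fold change of 0.38 (limma adjusted p = 0.11, called in 2 of 21 alternatives). It was followed by Tipin, a partner of TIMELESS (0.22, adjusted p = 0.269). Nr1h3, the liver X receptor alpha, had a relative log2 fold change of -0.44 (limma adjusted p = 0.401).

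Npas2, Nfil3, Tef and Hlf are named here after their values were seen, for how they ordered the libraries. Npas2, a paralog of Clock that pairs with ARNTL and is held down by REV-ERB, had 0.493, 0.209, 7.32 and 1.51 RPM in KO 1 to KO 4, against 3.67, 5.51, 0.428 and 2.43 RPM in WT 1 to WT 4. KO 3, WT 2, WT 1 and WT 4 were its 4 highest libraries in that order, as they were for Arntl. In KO 1, KO 2 and WT 3 it had 3 reads or fewer. Nfil3, a repressor at D-boxes, had 9.53, 13.6, 25.9 and 14.7 RPM in KO, against 18.8, 12.0, 12.1 and 7.29 RPM in WT, and was also highest in KO 3. The D-box activators related to DBP varied less than Dbp. Tef had 72.1, 68.3, 57.1 and 65.5 RPM in KO, against 47.1, 63.4, 75.0 and 56.4 RPM in WT. Hlf had 15.8, 22.2, 9.99 and 10.03 RPM in KO, against 9.45, 17.9, 21.8 and 16.2 RPM in WT.

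The genes most like each pattern were ranked among 8376 tested non-member genes with a mean of at least 5 RPM, by the root-mean-square difference of standardised profiles over the 8 libraries. Closest to Dbp was Usp2, a ubiquitin-specific protease and known rhythmic output (difference 0.26). Usp2 had 275, 249, 177 and 266 RPM in KO 1 to KO 4, against 216, 191, 290 and 222 RPM in WT 1 to WT 4, with KO 3 and WT 2 lowest and WT 3 and KO 1 highest. Pgam2, the muscle phosphoglycerate mutase (0.31), the water channel Aqp1 (0.35) and Ddit4, an inhibitor of mTORC1 signalling (0.41), followed. Among the members Per2 (0.40) was nearest to Dbp, ahead of Ddit4. Nr1d1 (0.57) was the member nearest to Arntl, but would rank only 117 among the non-member genes. Closest to Arntl were Fbn1, which encodes the matrix protein fibrillin (0.26), the kinesin Kif16b (0.26), Fchsd2 (0.30) and the lysosomal enzyme Sgsh (0.31). Closest to Arntl turned upside down were Aqp1 (0.43), 8430408G22Rik (0.43), Ddit4 (0.44) and Usp2 (0.48). The member Dbp stood at 0.45 on that measure, behind Aqp1, 8430408G22Rik and Ddit4, so opposition to Arntl was not particular to clock genes. None of these 9 non-member genes passed the limma test of KO against WT, with adjusted p between 0.49 and 0.959. The ranks describe 8 libraries that share a panel and a scaling.

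Outputs and inputs of the muscle clock were counted in 4 further lists. Of 23 tested genes described as clock outputs in muscle, 1 rose and 0 fell in limma (0.523% and 0.28% of all genes), with a median relative log2 fold change of -0.10. At an unadjusted p under 0.05 there were 6 higher and 1 lower, where 13.1% and 3.07% of all genes were. DESeq2 called Ccnd1 higher and Dyrk2 lower (2.16% of all genes in either direction), and edgeR called neither (0.83%). The gene that rose was Ccnd1, which encodes the cell cycle regulator cyclin D1. It had 9.20, 14.2, 10.4 and 8.24 RPM in KO, against 5.78, 5.68, 3.99 and 3.56 RPM in WT, with no overlap (relative log2 fold change 0.87, limma adjusted p = 0.0301). The Ccnd1 call was kept in 10 of 21 alternatives and was lost in edgeR (adjusted p = 0.0625), with TMM factors (0.0544), with quantile normalization (0.0581), with no filter (0.0685), without KO 1 (0.0736), KO 2 (0.102) or KO 3 (0.0813), without WT 2 (0.0597), WT 3 (0.129) or WT 4 (0.0847), and without WT 3 and KO 3 together (0.26). The hexokinase Hk2 (0.37, adjusted p = 0.112), the cell cycle inhibitor Cdkn1a (0.88, adjusted p = 0.128) and the kinase Dyrk2 (-0.67, adjusted p = 0.139) did not pass in limma.

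Glucocorticoid, a daily signal to peripheral clocks that acts on Per1 directly, was represented by 20 tested genes. Of these, 0 rose and 1 fell in limma (0.523% and 0.28% of all genes), with a median relative log2 fold change of -0.10. At an unadjusted p under 0.05, 3 were higher and 1 lower, where 13.1% and 3.07% of all genes were. Sgk1, a glucocorticoid-induced kinase, fell to 231, 181, 186 and 212 RPM in KO 1 to KO 4, against 283, 301, 369 and 380 RPM in WT 1 to WT 4 (relative log2 fold change -0.84, limma adjusted p = 0.0219). Its groups did not overlap, where 1.61% of all genes did not and were lower in KO. Its order of libraries was not that of Per1, and the part of glucocorticoid in the Per1 values was not tested. The Sgk1 call was kept in 14 of 21 alternatives and was lost without a variance trend (adjusted p = 0.0671), without KO 2 (0.0745), KO 3 (0.0723), WT 2 (0.0597), WT 3 (0.12) or WT 4 (0.0671), and without WT 3 and KO 3 together (0.26). Other genes of that list did not pass, among them Klf15, a glucocorticoid-induced transcription factor (0.49, adjusted p = 0.236), and the metallothionein Mt1 (0.48, adjusted p = 0.283). Immediate early genes, whose signals can also induce Per1, held 15 tested members, none called in limma, edgeR or DESeq2, with 3 higher and 1 lower at an unadjusted p under 0.05 (13.1% and 3.07% of all genes) and a median relative log2 fold change of -0.10. These were Egr1 (1.63, limma adjusted p = 0.0575), Junb (0.56, 0.176), Nr4a3 (1.08, 0.234) and Ier3 (-0.65, 0.249). Temperature-responsive genes, through which body temperature rhythms act on the clock, had 4 tested members. None was called in limma or edgeR, and DESeq2 called 1 higher, where it called 2.16% of all genes in either direction. At an unadjusted p under 0.05, 1 was higher and 0 lower (13.1% and 3.07% of all genes). Groups did not overlap for 1, higher in KO (7.5% of all genes). The 4 genes were the heat shock genes Hspa1b (0.90, limma adjusted p = 0.0512), Dnajb1 (0.25, 0.335) and Hsph1 (0.18, 0.372) and the cold-inducible Cirbp (-0.18, 0.883).

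In the annotation (GENCODE M21 on GRCm38) other genes overlap 6 of the 10 members. Nr1d1 (ENSMUSG00000020889.11, chromosome 11 from 98767932 to 98775333, minus strand) overlaps Thra on the other strand, and Dbp (ENSMUSG00000059824.12, chromosome 7 from 45705088 to 45710203, plus strand) overlaps Sphk2. Arntl (ENSMUSG00000055116.8, chromosome 7 from 113207465 to 113314126, plus strand) overlaps Gm45355 on the other strand, and Cry2 overlaps D930015M05Rik. Per3 overlaps Camta1, and Clock overlaps Ube2n-ps1 and Gm43658, on the same strand. With no statement on whether reads were assigned by strand, reads of these genes could be shared where the amplicon lies in the overlap. Per1 (ENSMUSG00000020893.17, chromosome 11 from 69095217 to 69109960, plus strand), Per2, Cry1 and Nr1d2 overlap no other annotated gene.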

How the data were processed

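Total RNA of 8 muscle samples was sequenced with the Ion AmpliSeq Transcriptome Mouse panel, per the labels. The authors deposited RPM values, and the Transcriptome Analysis Console is named in the submitters' processing notes. Not given in the sources used here were the aligner, build, read filters and use of strand. Groups and replicate numbers came from sample titles, and barcodes in the descriptions tied columns to samples. Whether each library is its own animal is not in the labels, and the p-values cover only the spread among these samples, which may be technical.

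Every deposited value was a whole number of reads (100.0% within 0.05 reads), which gave the library totals. Replicates differed by more than sampling noise (chi-square divided by its degrees of freedom, lowest 8.73). limma 3.58.1 (R 4.3.3; genotype as the only term, variance trend, two-sided) was fitted to log2(RPM + 1) of the 11087 genes that reached 1 RPM in 4 or more libraries. This scale understates changes of low genes, and an amplicon panel compares a gene between libraries, not genes with each other. edgeR 4.0.16 and DESeq2 1.42.0 were run on the recovered reads. The fits were tested on simulated data with known changes. Correlations used exact permutation over 8 libraries, two-sided.

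The members and lists were chosen with earlier results of these data known, and lists are described by counts alone. Named genes were the members, list genes with adjusted p under 0.05 or among the 4 smallest p of a list, and the 4 closest profiles to each pattern; 1 gene that the rule names is not reported here. Same-numbered libraries did not deviate together (correlations from -0.12 to 0.08, against -0.19 to 0.24 for other pairs of a KO and a WT library). Such correlations cannot exclude a pairing of animals, which the labels do not state. The replicate number was not used to pair libraries in the main fit. Alternatives were other pseudocounts, filters, scalings and tools, the block and omission of each library; chosen after seeing the data were an Xist term, the 6 libraries without Xist, omission of WT 3 and KO 3, and Dbp in place of Arntl in the correlations. Positions came from GENCODE M21 and promoters from RefSeq (GRCm38.p6), both matched by symbol. The RPM of 3 reads, the floor, lay between 0.412 and 0.628. Figures were drawn with matplotlib 3.10.9.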

Additional observations from a re-analysis of the deposited data

How the results depend on the processing

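No clock member was called under any of the 21 alternatives (209 values; Per3 was not tested with the 5 RPM filter). The count over all genes was 89 (58 higher, 31 lower) and depended on the settings: 59 without a filter, 240 in DESeq2, 235 with a term for Xist, 403 in the 6 libraries without Xist, 9 omitting WT 3 and KO 3, and 16 to 270 when 1 library was left out. TMM factors gave 39 higher and 65 lower, and edgeR 37 higher and 55 lower. Genes of the 5 clock-related lists, members aside, numbered 2 called, against 1 without a filter, with TMM factors, with quantile normalization and in edgeR, 4 in DESeq2, 6 with a term for Xist, 8 in the 6 libraries without Xist, 0 omitting WT 3 and KO 3, and 0 to 6 when 1 library was left out. These lists held 19, 23, 20, 15 and 4 tested genes. Of all genes, 0.803% were called in the main limma fit, 0.83% in edgeR and 2.16% in DESeq2. The causes of these changes with the settings were not tested. The replicate block, which treats same-numbered libraries as pairs though the labels do not say so, gave 81 genes and 0 members. Without 1 library the Sdhc difference, KO minus WT, lay between -710.6 and -637.1 RPM (exact permutation p = 0.0571, the smallest that 3 against 4 can give). With Dbp in place of Arntl, 3 of 9 relations passed by Pearson's r instead of 1, those with Arntl, Per2 and Per3; by Spearman's rho the relation with Arntl alone passed (Per2 and Per3 both adjusted p = 0.0628, exact permutation). Depth limits Per2, Per3 and Npas2 most, with few reads in some libraries.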
